A study of Homo sapiens with 6 samples.

Results

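The genes described here encode the box C/D small nucleolar ribonucleoprotein (snoRNP): the 4 core proteins FBL, NOP56, NOP58 and NHP2L1 (now named SNU13), and the 6 assembly factors ZNHIT6, ZNHIT3, NUFIP1, PIH1D1, RUVBL1 and RUVBL2. The set was chosen by the intensity of ZNHIT6, which had the largest rise with SALL4 knockdown in these same arrays, and the other 9 genes were added for their function. Of the 10 genes, 8 had a probe set annotated to them alone, among 18404 named genes on the array. For NOP56 and NHP2L1 the probe set carried a second gene symbol, so their values are given apart and enter no count. The study measured RNA of SNU-398 cells, a line derived from a human hepatocellular carcinoma, on Affymetrix arrays. There were 3 arrays of cells with an shRNA that targets SALL4, which encodes a DNA-binding factor of stem cells and fetal liver, and 3 of cells with a scrambled shRNA. The labels name 1 knockdown condition, no second SALL4 hairpin and no rescue, so effects of lower SALL4 and other effects of the hairpin cannot be told apart.

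Box C/D snoRNAs guide the methylation of ribose in ribosomal RNA, and a few of them, such as U3, take part in cutting the ribosomal RNA precursor. Each mature particle holds a snoRNA, the methyltransferase fibrillarin (FBL), the scaffold proteins NOP56 and NOP58, and the RNA-binding protein SNU13. The particle does not form by itself: ZNHIT6 (also called BCD1), ZNHIT3 and NUFIP1 bring SNU13 and NOP58 together, and the R2TP complex of RUVBL1, RUVBL2, PIH1D1 and RPAP3 works with the chaperone HSP90 in the same process. RUVBL1 and RUVBL2 are related ATPases that form rings together and are also subunits of chromatin remodelling complexes.

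All values are deposited intensities on a linear scale, never below 10, and levels of different probe sets are not comparable with each other. The median intensity of the arrays lay between 47.9 and 51.7. SALL4 itself had intensities of 121, 119 and 117 with the SALL4 shRNA, against 283, 264 and 335 with the scrambled shRNA. It stood at 40.6% of the scrambled level, and its log2 difference was -1.30 ± 0.18 (SE; limma adjusted p = 0.0112). In these bulk samples, fewer expressing cells and less RNA per cell cannot be told apart. On the second principal component, 19.8% of the variance, SALL4 shRNA replicate 2 (-23.4) and scrambled replicate 3 (-19.3) stood apart from the other 4 arrays (1.77 to 16.9). Of the liver markers, albumin (ALB) and alpha-fetoprotein (AFP) were near the lowest intensity the table holds, at 12.1 ± 0.40 and 13.5 ± 3.76 with the SALL4 shRNA (SD, n = 3) and 11.2 ± 1.39 and 15 ± 0.66 with the scrambled shRNA, while GPC3 was measured at 144 ± 21.8 and 155 ± 18.1 (SD, n = 3 each). The 11 liver markers measured summed to between 1322 and 1580 in SALL4 shRNA arrays and between 1352 and 1668 in scrambled arrays. EPCAM alone made up 803 to 1023 and 874 to 1138 of these sums. Of the 7 liver markers in the fit 0 passed, beside 1.60% of all genes fitted. Of these 7 differences 2 were positive and 5 negative, with a median of -0.07. The largest was KRT8 at 0.64 ± 0.29 (SE, limma adjusted p = 0.292). Its groups did not overlap, as for 22.4% of all genes fitted. The 12 markers of blood, endothelial, fibroblast and bile duct cells summed to between 673 and 757 in SALL4 shRNA arrays and between 696 and 733 in scrambled arrays. PTPRC, the pan-leukocyte marker, was at 10 on all 6 arrays. Of the 6 of these 12 markers in the fit 1 passed, the proteoglycan gene DCN, beside 1.06% of all genes fitted called lower. DCN was lower with the SALL4 shRNA, at 83.4 ± 21.1, against 195 ± 17.2 (SD, n = 3 each). Its part in the results below was not tested. The other fibroblast markers lay the other way without passing. COL1A2 was at a log2 difference of 0.50 ± 0.20 (SE, limma adjusted p = 0.235) and COL1A1 at 0.37 ± 0.20 (adjusted p = 0.38). The COL1A2 groups did not overlap, as for 22.4% of all genes fitted. Of the 6 fitted markers 4 differences were positive and 2 negative, with a median of 0.36.

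ZNHIT6, the factor that joins the early box C/D assembly intermediate, was far brighter with the SALL4 shRNA. Its intensities were 754, 589 and 593 in the SALL4 shRNA arrays, against 234, 154 and 166 in the scrambled arrays. Every knockdown array lay above every scrambled array, and the lowest knockdown value was well over the highest scrambled value. The mean was 645 ± 94.1 in SALL4 shRNA cells, against 184 ± 43.3 in scrambled cells (SD, n = 3 each), which is 3.54-fold on the mean log2 scale, or a log2 difference of 1.82 ± 0.21 (SE). That was the highest of the 13711 genes bright enough to be fitted, and the next named rises were TAPBP at 1.69 ± 0.29 and TMBIM1 at 1.65 ± 0.25. Because this rise chose the gene set, no test is given for it.

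The other members did not share that rise. Of the 7 other members with a probe set of their own, 0 rose, 1 fell and 6 did not pass in limma at an adjusted p of 0.05 over 13711 genes. Over all those genes 0.547% were called higher and 1.06% lower; since the same comparison picked ZNHIT6, nothing is read from the count of members against these shares. The gene that fell was RUVBL1, opposite in direction to ZNHIT6. Over the 8 measured members 3 differences were positive and 5 negative, with a median log2 difference of -0.03, beside 0.02 over all genes fitted.

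RUVBL1, an ATPase of the R2TP complex, fell to 227, 162 and 113 in the SALL4 shRNA arrays, against 387, 406 and 420 in the scrambled arrays. The groups did not overlap, as for 22.4% of all genes fitted. The scrambled arrays lay close together while the knockdown arrays spread over a wide range, with a coefficient of variation of 34.3% in SALL4 shRNA cells, against 4.13% in scrambled cells. SALL4 itself was at 121, 119 and 117 in the same 3 knockdown arrays. The cause of the RUVBL1 spread was not tested. The mean was 167 ± 57.3 in SALL4 shRNA cells, against 404 ± 16.7 in scrambled cells (SD, n = 3 each), so RUVBL1 stood at 39.8% of the scrambled level. The log2 difference was -1.33 ± 0.24 (SE; 95% interval -1.86 to -0.80; limma adjusted p = 0.0241). A two-sided exact permutation test gave 0.1, which is the lowest p that 3 against 3 arrays can reach. The call depends on the fit: the adjusted p was 0.136 without the filter on dim genes, a fit that called 0.0% of 18404 genes, and 0.102 in a fit of all probe sets, which called 0.0492% of them. It was 0.0209 without SALL4 shRNA replicate 1 but 0.0593 to 0.0798 without any 1 of the other 5 arrays.

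RUVBL2, the partner of RUVBL1 in the ring, changed much less. Its intensities were 224, 213 and 200 with the SALL4 shRNA, against 242, 272 and 223 with the scrambled shRNA. The groups overlapped at a single pair of arrays, knockdown replicate 1 and scrambled replicate 3. The log2 difference was -0.21 ± 0.18 (SE; 95% interval -0.60 to 0.19), with a limma adjusted p of 0.607. Taken as a ratio within each array, log2 of RUVBL1 over RUVBL2 was 0.02, -0.39 and -0.83 with the SALL4 shRNA, against 0.68, 0.58 and 0.91 with the scrambled shRNA. The ratio was lower in each knockdown array than in any scrambled array, and its mean fell by 1.12 on the log2 scale (two-sided exact permutation p = 0.1). Only the change of this ratio can be read, since its level depends on the probes. That change restates the differences of RUVBL1 and RUVBL2 and is no separate result.

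**Figure D1:**
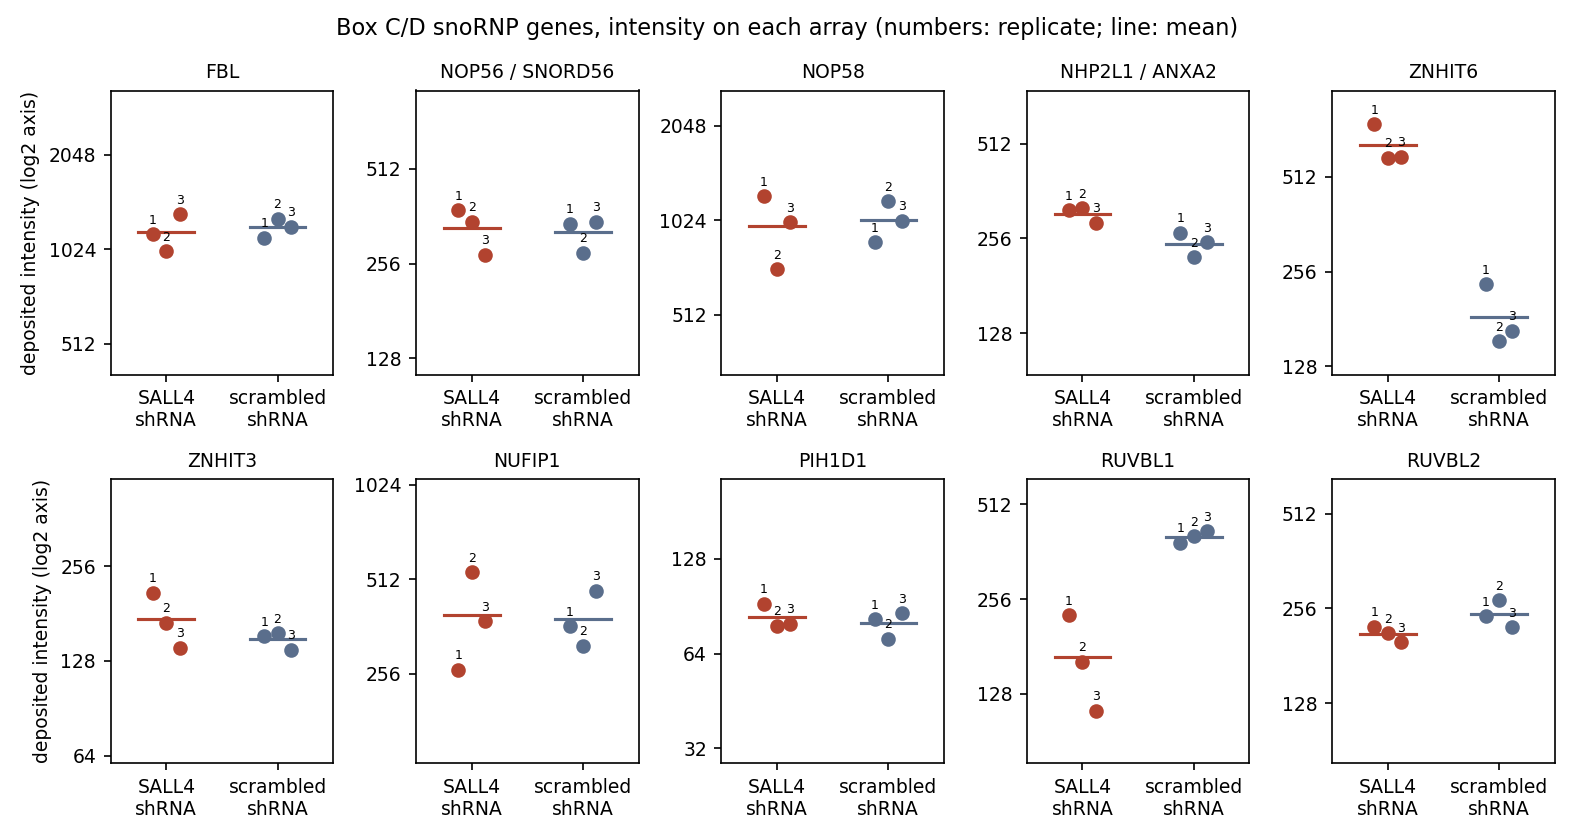
Deposited intensity of each box C/D snoRNP gene (log2 axis, all panels with the same span) in the 3 SALL4 shRNA arrays and the 3 scrambled shRNA arrays; points are arrays numbered by replicate and lines are group means. ZNHIT6 is higher in all 3 knockdown arrays (589 to 754, against 154 to 234) and RUVBL1 lower (113 to 227, against 387 to 420), while NOP56 and NHP2L1 are shown by probe sets that carry a second symbol.

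The start regions of the genes that stood apart, ZNHIT6 and RUVBL1, are shown with that of FBL, a core gene whose level differed little. Each window of 300 bases spans an annotated transcript start, most of it upstream, and is written 5′ to 3′ on the gene's strand, from RefSeq on GRCh38.p14. The ZNHIT6 window is chr1:85708384-85708683 (minus strand). RUVBL1 has an outer start, chr3:128153865-128154164, and an inner start, chr3:128123763-128124062 (both minus strand), and the sources used here do not say which of them the probe set reports. The FBL window is chr19:39846330-39846629 (minus strand). Capitals mark matches, on either strand, to CACGTG (the E-box bound by MYC and MAX), CCAAT (the NF-Y site) and ATATT (an AT-rich word of the kind SALL4 is known to bind).
ZNHIT6: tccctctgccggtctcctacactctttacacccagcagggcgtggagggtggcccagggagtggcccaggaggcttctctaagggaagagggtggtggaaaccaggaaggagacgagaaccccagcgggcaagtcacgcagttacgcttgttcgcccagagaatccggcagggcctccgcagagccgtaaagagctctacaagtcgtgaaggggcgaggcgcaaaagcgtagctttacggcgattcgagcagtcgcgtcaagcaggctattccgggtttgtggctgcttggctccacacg
RUVBL1, outer start: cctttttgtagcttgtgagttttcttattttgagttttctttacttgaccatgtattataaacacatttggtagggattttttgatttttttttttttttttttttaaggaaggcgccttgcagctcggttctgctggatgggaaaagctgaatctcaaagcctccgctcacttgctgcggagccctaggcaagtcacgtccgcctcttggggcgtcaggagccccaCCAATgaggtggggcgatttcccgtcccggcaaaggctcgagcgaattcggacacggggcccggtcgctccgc
RUVBL1, inner start: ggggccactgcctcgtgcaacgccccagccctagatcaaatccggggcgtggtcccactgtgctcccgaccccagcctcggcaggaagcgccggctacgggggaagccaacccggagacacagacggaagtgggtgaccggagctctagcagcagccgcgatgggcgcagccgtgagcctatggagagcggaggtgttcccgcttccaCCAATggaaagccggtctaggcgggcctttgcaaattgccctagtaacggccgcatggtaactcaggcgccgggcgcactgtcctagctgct
FBL: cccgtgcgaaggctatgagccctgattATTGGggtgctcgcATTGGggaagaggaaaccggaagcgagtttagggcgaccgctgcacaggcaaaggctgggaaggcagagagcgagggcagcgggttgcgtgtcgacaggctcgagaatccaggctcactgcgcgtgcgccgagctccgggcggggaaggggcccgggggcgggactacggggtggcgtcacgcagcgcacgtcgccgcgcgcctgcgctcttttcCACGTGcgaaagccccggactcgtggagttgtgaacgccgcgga
The ZNHIT6 window held none of the 3 words. Both RUVBL1 windows held 1 CCAAT each, a word found in 34.6% of the 35116 start windows of the genome. Windows of NOP56, RUVBL2 and ZNHIT3, not shown here, held it too. FBL held CCAAT 2 times and also CACGTG, which 7.26% of all windows hold and no other member window held. ATATT, found in 23% of all windows, was absent from the 4 windows shown and present in 1 of the RUVBL2 windows. In all, 7 of the 10 genes had a window, and the matches describe letters only.

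The other early assembly factors, which work beside ZNHIT6, had overlapping groups and did not pass. ZNHIT3, the partner that stabilises NUFIP1, had intensities of 211, 169 and 141 with the SALL4 shRNA, against 153, 157 and 139 with the scrambled shRNA. The SD was 34.9 among the knockdown arrays and 9.61 among the scrambled arrays. Its log2 difference was 0.20 ± 0.20 (SE; 95% interval -0.24 to 0.63), and the groups overlapped. It shares the HIT zinc finger with ZNHIT6, and log2 of ZNHIT6 over ZNHIT3 was 1.84, 1.80 and 2.07 with the SALL4 shRNA, against 0.61, -0.03 and 0.26 with the scrambled shRNA. The level of this ratio depends on the probes. Its change mostly restates the rise of ZNHIT6 that chose the set and is no separate result.

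NUFIP1, the scaffold that binds SNU13, had intensities of 264, 538 and 377 with the SALL4 shRNA, against 363, 315 and 471 with the scrambled shRNA. Its groups overlapped fully, with a fold of 0.999 and a 95% interval of -0.57 to 0.57 on the log2 scale. It had the widest relative spread among knockdown arrays of the 8 members, at 35% of its mean. PIH1D1, the R2TP subunit that recruits clients, had intensities of 92.3, 78.5 and 79.7 with the SALL4 shRNA, against 82.5, 71.5 and 86.1 with the scrambled shRNA. The groups overlapped, and the log2 difference was 0.06 ± 0.18 (SE; 95% interval -0.34 to 0.46).

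The core genes with a probe set of their own, FBL and NOP58, differed by less than the spread between replicates. FBL, the methyltransferase, had intensities of 1142, 1010 and 1326 with the SALL4 shRNA, against 1115, 1282 and 1208 with the scrambled shRNA. The groups overlapped, with a log2 difference of -0.06 ± 0.19 (SE; 95% interval -0.47 to 0.35). NOP58 had intensities of 1222, 716 and 1009 with the SALL4 shRNA, against 871, 1176 and 1021 with the scrambled shRNA. The groups overlapped here too, with a log2 difference of -0.08 ± 0.23 (SE; 95% interval -0.58 to 0.41). In both genes knockdown replicate 2 was the lowest of the 6 arrays, the array that also stood apart on the second principal component, and without it the differences were 0.04 for FBL and 0.13 for NOP58. The intervals of the 6 members that did not pass leave room for changes of up to 0.63 in size, so they do not show that these genes were unaffected. Their adjusted p values lay between 0.607 and 0.999, and 0 of the 6 had an unadjusted p under 0.05, beside 16.9% of all genes fitted.

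The probe set annotated to both NOP56 and SNORD56, a snoRNA encoded in a NOP56 intron, had intensities of 378, 348 and 273 with the SALL4 shRNA, against 343, 277 and 348 with the scrambled shRNA. The groups overlapped, with a log2 difference of 0.04 ± 0.20 (SE) in a limma fit of all 20316 probe sets bright enough (adjusted p = 0.949), which called 0.00984% of probe sets higher and 0.0394% lower. The probe set annotated to both SNU13, as NHP2L1 is now named, and ANXA2, a membrane-binding protein gene elsewhere in the genome, had intensities of 315, 320 and 287 with the SALL4 shRNA, against 267, 223 and 249 with the scrambled shRNA. All 3 knockdown arrays were above the scrambled ones, as for 21.2% of the probe sets in that fit without regard to direction. The log2 difference of 0.32 ± 0.17 (SE; 95% interval -0.07 to 0.71) did not pass (adjusted p = 0.42), and the share of its signal from each gene is unknown.

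**Figure D2:**
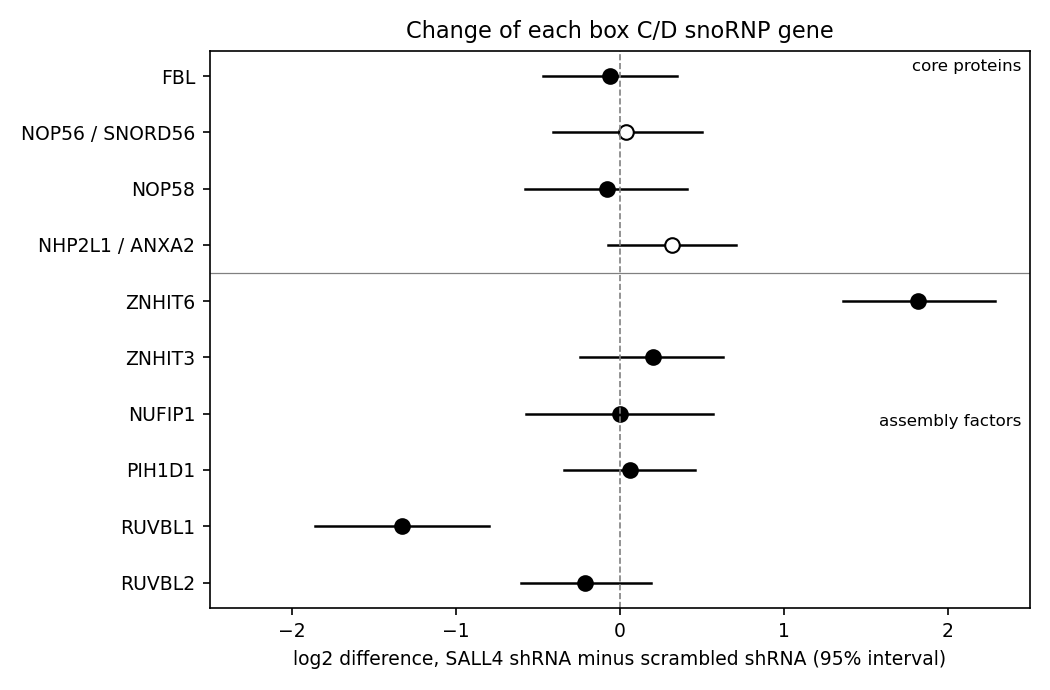
Log2 difference of each gene (x axis, SALL4 shRNA minus scrambled shRNA) with its 95% interval from limma, by role; open points are probe sets that carry a second symbol. ZNHIT6 (1.82) and RUVBL1 (-1.33) lie apart on opposite sides, and the intervals of the other genes include 0.

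The genes around the particle were then examined in 9 lists of partners, related particles and clients. Of their 105 genes in the fit, limma called 0 at an adjusted p under 0.05, with trend and robust settings also 0, and 14 (13.3%) had an unadjusted p under 0.05. Over all genes fitted the shares were 1.60% called and 16.9% at an unadjusted p under 0.05. The groups did not overlap for 23 of the 105 (21.9%), beside 22.4% of all genes fitted. The median log2 difference of the 105 was -0.01, with 51 positive and 54 negative. Named from each list are the 2 genes with the lowest unadjusted p, so their separation follows in part from that choice.

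Among 17 further partners of R2TP, HSP90 and the prefoldin-like module, 9 differences were positive and 8 negative. An unadjusted p under 0.05 was found for 4 of them (23.5%), beside 16.9% of all genes fitted. POLR2E, an RNA polymerase subunit gene of that module, had intensities of 89.7, 113 and 155 with the SALL4 shRNA, against 66.5, 59.9 and 81.7 with the scrambled shRNA. Its knockdown arrays were all above its scrambled arrays, by 0.76 ± 0.23 (SE) on the log2 scale, with a limma adjusted p of 0.117. TTI1, which helps HSP90 stabilise large kinases, was at -0.56 ± 0.20 (adjusted p = 0.184). Of the 3 other HIT zinc finger genes measured, the helicase gene DDX59 was at -0.50 ± 0.18 and ZNHIT1, a chromatin remodelling subunit gene, at 0.30 ± 0.22.

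Among 10 genes of snoRNP maturation and transport, 2 (20%) had an unadjusted p under 0.05, beside 16.9% of all genes fitted. COIL, the scaffold protein of Cajal bodies where snoRNPs mature, had intensities of 522, 531 and 281 with the SALL4 shRNA, against 795, 616 and 682 with the scrambled shRNA. It was lower in each knockdown array, by 0.70 ± 0.25 (SE) on the log2 scale, and did not pass (adjusted p = 0.185). GEMIN2, a subunit of the SMN complex, was at 0.60 ± 0.18 (adjusted p = 0.116). The 6 genes of the box H/ACA particle, which guides pseudouridylation, had 1 unadjusted p under 0.05, for the assembly factor gene NAF1 at -0.56 ± 0.23. The pseudouridine synthase gene DKC1 was at -0.34 ± 0.19.

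In the small subunit processome, where the U3 box C/D snoRNP acts, 13 of 29 genes had a positive and 16 a negative difference, with a median of -0.01. UTP6 had intensities of 139, 186 and 124 with the SALL4 shRNA, against 270, 385 and 200 with the scrambled shRNA. Its groups did not overlap, as for 22.4% of all genes fitted. The log2 difference of -0.90 ± 0.25 (SE) had a limma adjusted p of 0.092, the lowest of the 105 genes. RCL1 was at -0.57 ± 0.18 (adjusted p = 0.123). SNU13 also belongs to the U4/U6 particle of the spliceosome. There 0 of 5 partner genes had an unadjusted p under 0.05, beside 16.9% of all genes fitted. PRPF3 was at -0.26 ± 0.22 and PRPF4 at 0.19 ± 0.20.

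RUVBL1 and RUVBL2 are shared with the INO80, SRCAP and TIP60 remodelling complexes. Of 26 further subunits 13 differences were positive and 13 negative. Among them 3 (11.5%) had an unadjusted p under 0.05, beside 16.9% of all genes fitted. The ATPase gene SRCAP had intensities of 371, 290 and 279 with the SALL4 shRNA, against 452, 464 and 556 with the scrambled shRNA. It was lower in each knockdown array, by 0.65 ± 0.20 (SE) on the log2 scale, without passing (adjusted p = 0.113). The acetyltransferase gene KAT5 was at 0.47 ± 0.19 (adjusted p = 0.246).

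**Figure D3:**
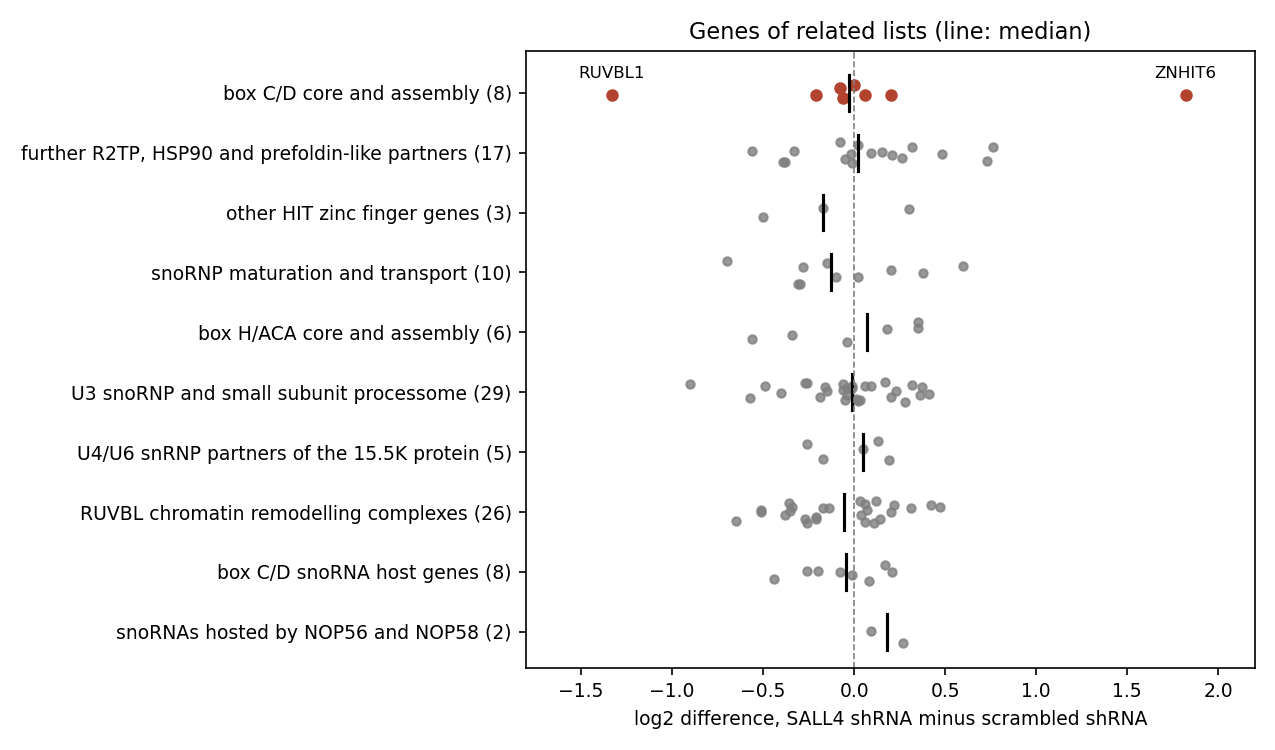
Log2 difference (x axis, SALL4 shRNA minus scrambled shRNA) of every fitted gene of the 9 related lists (grey points) and of the 8 measured box C/D core and assembly genes (top row, red); the number of genes is in parentheses and black lines are medians. The related genes lie between -0.90 and 0.76, all above RUVBL1. They lie below ZNHIT6 by construction, since the set was chosen by the largest rise.

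Small nucleolar RNAs, among them those the particle carries, were covered in part. Of the snoRNAs hosted in NOP56 and NOP58 introns, SNORD57 had intensities of 3782, 2426 and 3131 with the SALL4 shRNA, against 2515, 2534 and 2588 with the scrambled shRNA. Knockdown replicate 2 was below the scrambled arrays and the other 2 above them, with a log2 difference of 0.27 ± 0.20 (SE; adjusted p = 0.546). SNORA51, also in a NOP56 intron but of the box H/ACA class that the box C/D particle does not carry, was at 0.09 ± 0.25. Among 8 host genes of box C/D snoRNAs measured alone, 0 had an unadjusted p under 0.05, TAF1D being at -0.44 ± 0.23 and ZFAS1 at -0.26 ± 0.20. Over all 58 box C/D snoRNA symbols in the fit, 0 rose and 4 fell (SNORD15A, SNORD116-21, SNORD12C and SNORD14E, from -1.76 to -1.21), beside 0.547% of all genes fitted called higher and 1.06% lower. Their median was -0.46, with 17 positive and 41 negative, and another 57 were too dim to be fitted. An unadjusted p under 0.05 was found for 22 of the 58 (37.9%), beside 16.9% of all genes fitted. The groups did not overlap for 10 of the 58 (17.2%), beside 22.4% of all genes fitted. Without the filter 0 of these snoRNAs passed, in a fit that called 0 of 18404 genes. In that fit 14 of the 115 had an unadjusted p under 0.05, beside 15.6% of all genes. The shares among the 58 and among the 115 cover unlike sets, so nothing is read from their difference. A gene can pass the filter through 1 group alone, and the part of this in the counts was not tested. The mean log2 intensity of the 58 was 6.85, 6.53 and 6.97 in the SALL4 shRNA arrays and 7.31, 7.35 and 7.04 in the scrambled arrays, lowest within each group in the replicate that stood apart on the second principal component.

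The 5 genes whose pattern over the 6 arrays was most like that of ZNHIT6 were CTSL (Pearson r = 0.996), BRI3 (0.995), KLC4 (0.991), CNTROB (0.99) and NPC2 (0.989). CTSL, a lysosomal protease gene, had intensities of 1511, 1353 and 1287 with the SALL4 shRNA, against 878, 720 and 696 with the scrambled shRNA. In both CTSL and ZNHIT6, replicate 1 was the brightest array of each group. With 6 arrays in 2 groups such an r mostly reflects the group difference, so it describes likeness only. NPC2, a lysosomal cholesterol carrier gene, was higher by 1.40 on the log2 scale, CTSL by 0.86, KLC4 by 0.55, BRI3 by 0.54 and CNTROB by 0.36.

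**Figure D4:**
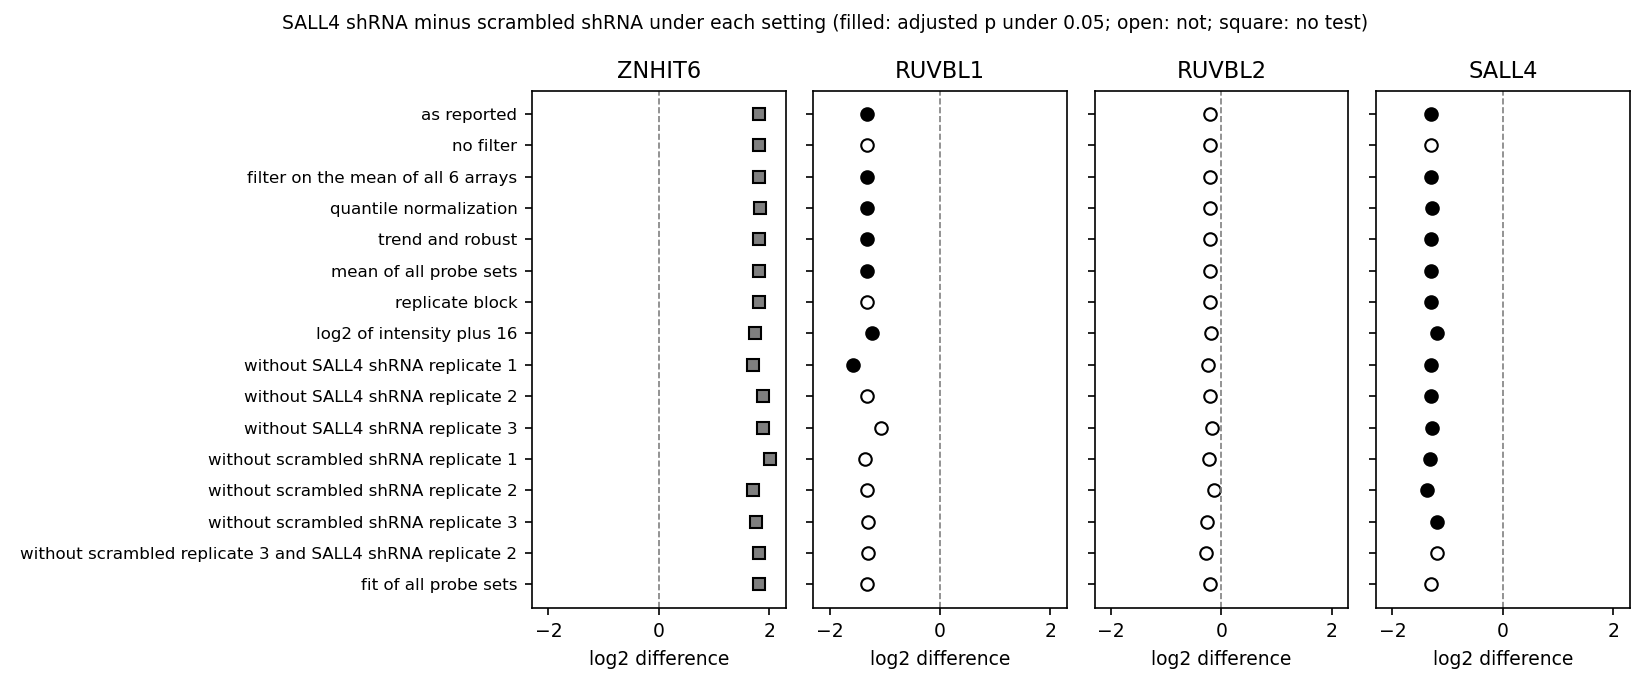
Log2 difference (x axis, SALL4 shRNA minus scrambled shRNA) of ZNHIT6, RUVBL1, RUVBL2 and SALL4 as reported (top) and under each of 15 other settings; filled circles have a limma adjusted p under 0.05, open circles do not, and squares are untested. The difference of RUVBL1 stays between -1.58 and -1.08 while its call changes, and that of ZNHIT6 stays between 1.70 and 2.01.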

How the data were processed

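The deposited intensity values come from Affymetrix arrays of 3 SALL4 shRNA and 3 scrambled shRNA samples. The authors used RMA per the submitters' processing notes; the sources used here give no version and no account of the return to a linear scale or of the floor of 10, at which 15.5% to 16.9% of each array's values lie. Log2 of each intensity was taken. Of 32319 probe sets, 19158 have 1 gene symbol in the platform annotation, 1388 several and 11773 none listed; symbols were updated through Entrez identifiers (19128 matched). Each of 18404 genes was represented by its brightest probe set. A gene entered the fit if its mean log2 intensity reached 5 in at least 1 group (13711 genes; all 8 measured members reached it in both). The fit used limma 3.58.1 under R 4.3.3 (lmFit, eBayes, two-sided, Benjamini-Hochberg over all genes, threshold 0.05). Fits of other settings are described after the report.

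The members and gene lists were chosen with earlier results of these data known, as was the filter. The motif words, the count over all snoRNA symbols and the fit of all probe sets were chosen after the values were seen. Named genes are the members, SALL4, up to 4 called genes or the 2 lowest p values of each list, and the 5 genes most like ZNHIT6. The labels call the samples biological replicates without saying how the cultures were separated, so p values measure the spread between these samples. The number of arrays limits the precision. The labels do not say whether replicate numbers pair the samples. Deviations of same-numbered arrays from their group means had correlations of 0.00289, -0.083 and -0.0388, which cannot settle this. The fit did not pair the samples, and a fit with a replicate block is given among the other settings.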

Additional observations from a re-analysis of the deposited data

How the results depend on the processing

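The differences of ZNHIT6, ZNHIT3, RUVBL1, RUVBL2 and SALL4 kept their sign under all 15 alternatives. Those that change only the filter, the variance estimate or the replicate block leave each difference as it was. The mean of all probe sets and the fit of all probe sets also left these differences unchanged, and each member has only 1 probe set. The sign of ZNHIT6 is no test, since its rise in these same arrays chose the set. Of the 105 related genes, 0 passed in any of the 15 alternatives. RUVBL1 kept its call in 6 of them: a filter on the mean of all 6 arrays, quantile normalization, trend and robust settings, the mean of all probe sets, an added 16 before log2, and without SALL4 shRNA replicate 1. The count of the 7 other members called (1) was 0 to 1 without any 1 array, and 0 with no filter, with the replicate block, without scrambled replicate 3 and SALL4 shRNA replicate 2 together, and in the fit of all probe sets. The count of all genes called (220) was 39 to 103 without any 1 array, 0 with no filter (2864 at an unadjusted p under 0.05), 500 with trend and robust settings, 41 with the replicate block, 445 with 16 added, 15 without that pair of arrays, and 10 among all probe sets. The log2 difference of SALL4 was -1.37 to -1.20 without any 1 array, called in all 6 such fits, and lost its call with no filter (-1.30, adjusted p = 0.0946), without that pair (-1.20, adjusted p = 0.0724) and in the fit of all probe sets (-1.30, adjusted p = 0.0535). With the replicate block RUVBL1 stayed at -1.33 with an adjusted p of 0.0567. Members near 0 changed sign. Without any 1 array FBL ranged over -0.16 to 0.04, NOP58 over -0.26 to 0.13, NUFIP1 over -0.26 to 0.25 and PIH1D1 over -0.02 to 0.12. FBL was at 0.04 without SALL4 shRNA replicate 2, alone or with scrambled replicate 3, NOP58 at 0.13 in the same fits and 0.02 without scrambled replicate 2, NUFIP1 at 0.25 without SALL4 shRNA replicate 1 and 0.16 without scrambled replicate 3, and PIH1D1 at -0.01 and -0.02 without SALL4 shRNA replicate 1 or scrambled replicate 2. The cause of these changes was not tested. Fits with fewer arrays also have fewer degrees of freedom. Without the filter the prior degrees of freedom were 1.09, against 8.01 with it.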
